A study of Mus musculus with 16 samples.

Results

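The genes described here encode 8 enzymes that make haem and the carrier Slc25a38, 9 genes chosen by name out of 49585 gene identifiers counted in 16 mouse RNA sequencing libraries. Each of the 9 (Alas2, Alas1, Slc25a38, Alad, Uros, Urod, Cpox, Ppox and Fech) was found once in each deposited table of counts and passed the filter on low counts in each comparison. The libraries were labelled as neutrophils sorted by flow cytometry from the bones of C57BL/6 mice aged 8 to 12 weeks. The series asks how the oxygen-regulated factor HIF2α acts on neutrophil movement.

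There were 4 groups of 4 libraries. P2KO carried floxed PHD2 (Egln1) with Vav:cre, a recombinase driven in blood-forming cells in general and so not in neutrophils alone, and P2WT was its wild-type group. P2H2KO carried floxed PHD2 and floxed HIF2 (Epas1) with the same Vav:cre, and P2H2WT was the wild-type group of that line. The labels give neither a Cre allele for the wild-type groups nor the exons that were removed. They also do not say that each library came from a separate mouse, so the p-values measure the spread between these libraries, which may in part be technical.

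Haem is built from glycine and succinyl-CoA along a route that starts and ends in the mitochondrion and passes through the cytosol. The first step is catalysed by either of a pair of 5-aminolaevulinate synthases: ALAS2, made in erythroid cells and held back by iron-regulatory proteins when iron is short, and ALAS1, made in most cells and reduced by haem itself. Erythroblasts make most of the haem of the bone marrow, for haemoglobin, whereas granulocytes need it for myeloperoxidase, catalase and the NADPH oxidase.

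The libraries held between 23450746 and 28601284 counts. Markers of mature neutrophils (6 genes, led by S100a9, S100a8 and Retnlg, none at 0) summed to between 13900 and 38600 CPM (counts scaled to the size of the library). A list of 14 matched erythroid markers, led by Hbb-bs, Hba-a1 and Slc4a1 and with none at 0, summed to between 24900 and 50400 CPM, so libraries labelled as sorted neutrophils also held erythroid RNA. Whole-gene counts of Egln1 overlapped between genotypes (43.2 to 58.4 CPM in P2KO and 45.9 to 51.3 CPM in P2WT). Epas1 was not lower in the P2H2KO libraries (3.42 to 8.39 CPM) than in the P2H2WT libraries (2.55 to 4.97 CPM). Counts over a whole gene do not check the removal of exons that the labels do not name, so the genotypes below are those of the labels. Of 6 genes known to respond to HIF (Ankrd37, Aldoc, Pfkl, Egln3, Bnip3 and Pdk1), edgeR called 3 higher in P2KO (against 0.0437% of all genes tested) and 6 higher in P2H2KO (against 0.0744%), at adjusted p under 0.05. The difference between the genotype effects had an adjusted p of 0.999 in edgeR for each of the 6. These 6 were chosen with earlier results of these data known.

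The upstream sequences of the genes are shown first, as a description of the letters near their annotated starts. A motif that lies farther away or within a gene would not be seen there. RefSeq windows of 250 bases before an annotated start on GRCm38.p6 were found for 8 of the 9 genes, 11 windows in all since some genes have more than one start. The capitals mark a match to AGATAA or TGATAA, the letters that the erythroid factor GATA1 is known to prefer, here on the opposite strand. Each sequence is the stretch from 150 to 51 bases before the start, read 5′ to 3′ on the strand of the gene. The start of Cpox and the upstream starts of Alad and Uros were not found in a GENCODE transcript. In both Alas1 windows and the downstream Uros window most of this stretch lay in annotated exons.

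Alas2, chrX:150547267-150547366, plus strand: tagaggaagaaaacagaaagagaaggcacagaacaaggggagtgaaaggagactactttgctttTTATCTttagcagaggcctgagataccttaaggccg

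Cpox, chr16:58670058-58670157, plus strand: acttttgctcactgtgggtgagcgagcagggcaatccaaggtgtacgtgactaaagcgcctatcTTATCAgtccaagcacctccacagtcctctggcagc

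Slc25a38, chr9:120110232-120110331, plus strand: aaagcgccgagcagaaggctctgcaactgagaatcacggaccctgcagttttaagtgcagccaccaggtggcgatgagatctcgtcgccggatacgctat

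Urod, chr4:116994464-116994563, minus strand: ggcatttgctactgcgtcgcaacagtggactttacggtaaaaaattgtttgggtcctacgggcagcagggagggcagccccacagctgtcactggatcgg

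The match began 86 bases before the start in Alas2 and 86 bases before it in Cpox, and a further match lay 68 bases before the downstream start of Uros. Thus 3 of the 11 windows held AGATAA or TGATAA on either strand, against 16.6% of 32851 windows of the same length in the table. Slc25a38 and Urod are shown as genes that varied with Alas2 in the libraries and held no such match in their windows. CCACACCC, the letters KLF1 is known to bind, was found in none of the 11 windows and in 3.2% of all. ACGTG, the core of a HIF response element, was found in 5 of the 11 windows, those of Alad (both starts), Urod, Uros and Cpox, against 16.6% of all. GCGTG, its other form, was found in 4 of the 11, of Ppox, Alad, Alas1 and Cpox, against 28.2% of all. The AGATAA and TGATAA matches do not overlap these. The ACGTG matches of Alad (both starts), Urod and Uros lay on both strands at neighbouring bases, as at 49 and 48 bases before the start of Urod. Each is thus a stretch that reads the same on either strand, and only that of Cpox lay on the plus strand alone. Whether any of them serves HIF was not tested. A match is a description of letters and not of binding, which was not measured.

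Alas2 was the most abundant of the 9. Among 27054 genes with at least 1 count it ranked 35th by mean CPM, ahead of Fech at 87, Cpox at 97, Urod at 456 and Alad at 569. Alas1 ranked 1380, Ppox 1389, Uros 1509 and Slc25a38 1638. Per kilobase of the longest principal transcript, Alas2 stood at 859 ± 170 CPM per kb (SD, n = 16), well above Cpox at 284 ± 50.2, Alad at 238 ± 38.5 and Urod at 228 ± 37.0. Fech followed at 146 ± 26.3 CPM per kb, then Ppox at 84.2 ± 18.8, Uros at 81.5 ± 16 and Slc25a38 at 74.9 ± 12.1. Alas1 was the lowest at 45.3 ± 4.49 CPM per kb. The neighbours Alad and Urod, and the trio of Ppox, Uros and Slc25a38, differed by less than the SD of any of them, and Cpox and Alad by less than the SD of Cpox. With the union of all exons as the length, Alad (158 CPM per kb) came before Cpox (132) and Urod (131), and Alas2 (729) and Alas1 (24.9) kept the first and the last place.

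Alas2 catalyses the first step in erythroid cells (GRCm38 chrX:150547375-150570638, plus strand). In the P2KO libraries numbered 1, 5, 6 and 9 it stood at 1790, 2060, 1150 and 1830 CPM. In P2WT 3, 4, 7 and 10 it stood at 1680, 1990, 1400 and 1510 CPM. Library 6 was the lowest of this line, and the other 3 P2KO libraries lay within or just above the range of the wild type. In P2H2KO 11, 12, 15 and 17 Alas2 stood at 2160, 1880, 1130 and 1640 CPM. In P2H2WT 13, 14, 16 and 18 it stood at 2060, 2380, 1730 and 1630 CPM. The groups overlapped in both lines, and the library labelled P2H2KO 15 was the lowest of all 16. Its exons share 311 bases with Apex2 on the other strand, which had at most 483 counts in a library, against at least 29149 for Alas2. The genotype difference in the PHD2 line was 0.06 on the log2 scale (SE 0.184, 95% interval -0.35 to 0.48, 1.04-fold). In the line labelled as lacking PHD2 and HIF2α it was -0.20 (SE 0.205, 95% interval -0.66 to 0.27, 0.872-fold).

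Alas1, the synthase made in most cells (chr9:106233455-106248654, minus strand), behaved differently from Alas2 across libraries. It stood at 157, 147, 169 and 126 CPM in P2KO 1, 5, 6 and 9, and at 139, 137, 151 and 149 CPM in P2WT 3, 4, 7 and 10. In P2H2KO 11, 12, 15 and 17 the values were 147, 155, 180 and 180 CPM, and in P2H2WT 13, 14, 16 and 18 they were 152, 145, 173 and 156 CPM. P2H2KO 15, the lowest library for Alas2, was the highest for Alas1. The highest library held 1.44 times the lowest for Alas1, against 2.11 times for Alas2. Alas1 differed by 0.07 on the log2 scale between P2KO and P2WT (SE 0.0958, 95% interval -0.15 to 0.28) and by 0.08 between P2H2KO and P2H2WT (SE 0.0919, 95% interval -0.12 to 0.29). The ratio of Alas2 to Alas1 per kilobase of transcript ran from 10.4 to 27.5 over the 16 libraries.

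**Figure D1:**
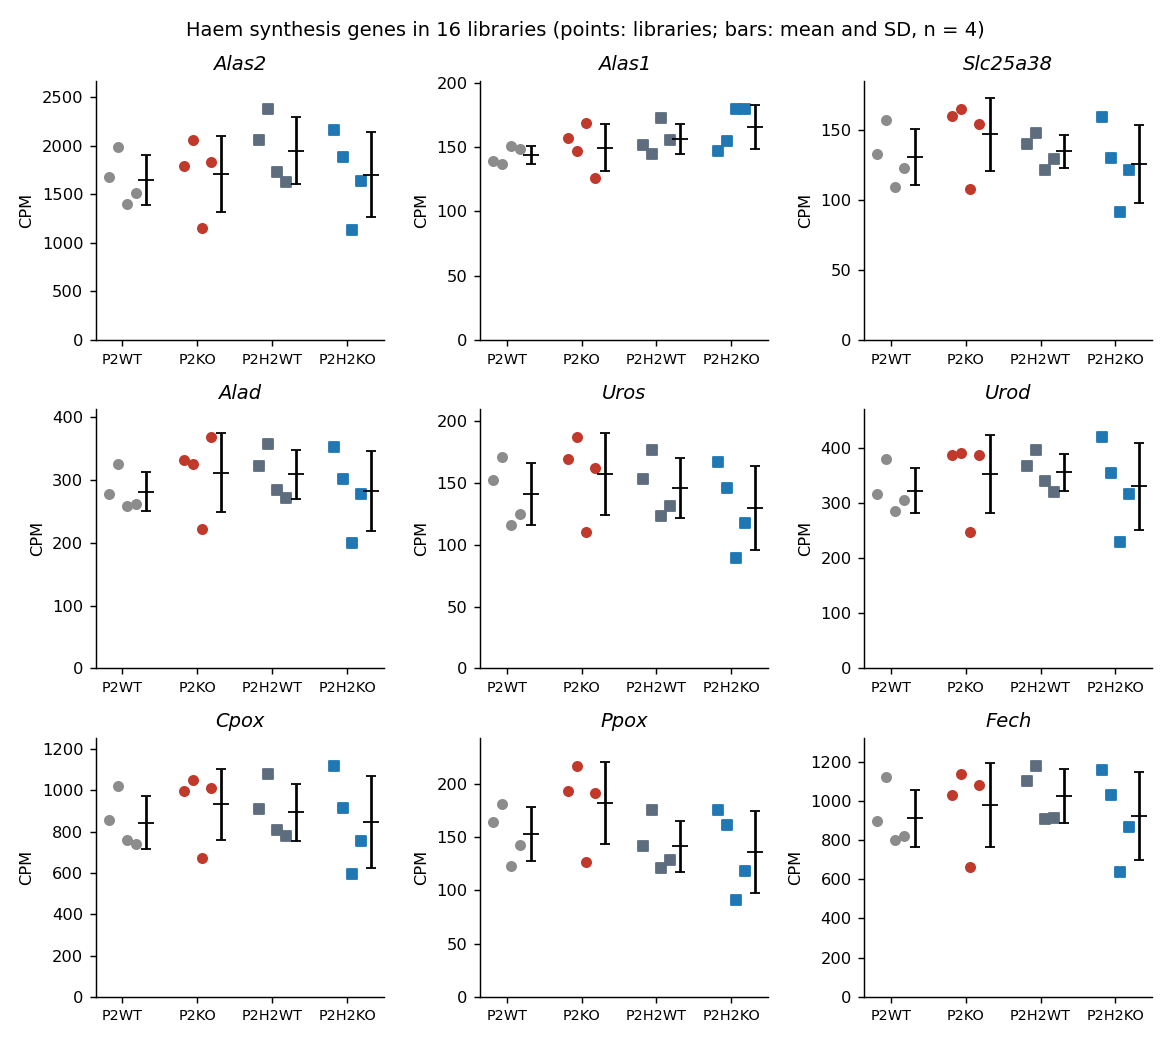
Abundance of the 9 genes (CPM, each panel starting at 0) in the 16 libraries by group. Points are libraries, horizontal ticks and bars are the mean and SD of 4. Groups overlap in each panel, and P2KO 6 and P2H2KO 15 are the low points of their groups for the 8 genes other than Alas1.

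Slc25a38 brings glycine into the mitochondrion for the first step (chr9:120110374-120124504, plus strand). It ranged from 108 to 165 CPM in P2KO, from 109 to 157 in P2WT, from 91.2 to 159 in P2H2KO and from 121 to 148 in P2H2WT. Alad, which joins molecules of aminolaevulinate into porphobilinogen in the cytosol (chr4:62509169-62519918, minus strand), ranged from 222 to 368 CPM in P2KO and from 258 to 326 in P2WT. In the other line its range was 200 to 353 CPM in P2H2KO and 272 to 357 CPM in P2H2WT. For both genes the wild-type range lay almost wholly inside that of the libraries labelled as deficient.

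Uros closes the ring of uroporphyrinogen (chr7:133686243-133710072, minus strand) and Urod then removes carboxyl groups from its side chains (chr4:116989965-116994413, minus strand). Uros ranged from 110 to 187 CPM in P2KO, 116 to 171 in P2WT, 89.1 to 167 in P2H2KO and 123 to 177 in P2H2WT. Urod stood at 386, 390, 247 and 387 CPM in P2KO 1, 5, 6 and 9, and at 316, 380, 286 and 305 CPM in P2WT 3, 4, 7 and 10. In this line 3 P2KO libraries were higher than each P2WT library and the other was lower than each. Urod ranged from 229 to 419 CPM in P2H2KO and from 319 to 396 CPM in P2H2WT.

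Cpox and Ppox carry the pathway through the mitochondrial oxidations to protoporphyrin, and Fech inserts the iron. Cpox (chr16:58670292-58717636, plus strand) stood at 995, 1050, 675 and 1010 CPM in P2KO 1, 5, 6 and 9, and at 857, 1020, 758 and 739 CPM in P2WT 3, 4, 7 and 10. It ranged from 594 to 1120 CPM in P2H2KO and from 777 to 1080 CPM in P2H2WT. P2KO 6 again stood below the 4 wild-type libraries. Fech (chr18:64452914-64490251, minus strand) ranged from 662 to 1140 CPM in P2KO, 801 to 1120 in P2WT, 636 to 1160 in P2H2KO and 909 to 1180 in P2H2WT. Cpox shares 204 exonic bases with Gpr15 on the other strand, which had at most 72 counts in a library. The exons of Fech, Uros, Urod, Alad and Slc25a38 overlap no other annotated gene.

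Ppox (chr1:171275990-171281186, minus strand) had the largest estimate among the 9 in the PHD2 line. It stood at 193, 217, 127 and 191 CPM in P2KO 1, 5, 6 and 9, and at 164, 181, 123 and 143 CPM in P2WT 3, 4, 7 and 10. The means were 182 ± 38.5 and 153 ± 25.1 CPM (SD, n = 4 each), and the ranges overlapped only through P2KO 6. In P2H2KO 11, 12, 15 and 17 Ppox stood at 175, 161, 91.3 and 118 CPM, and in P2H2WT 13, 14, 16 and 18 at 142, 175, 121 and 128 CPM. The difference was 0.26 on the log2 scale in the PHD2 line (SE 0.17, 95% interval -0.12 to 0.65, 1.2-fold). It was -0.05 in the other line (SE 0.205, 95% interval -0.51 to 0.41). Ppox shares 791 exonic bases with B4galt3 on the other strand, which had 921 to 1433 counts in a library against 2541 to 6295 for Ppox. The use of strand in counting is not given in the sources used here, so reads of the shared bases cannot be told apart.

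The comparison of P2KO with P2WT asks whether haem synthesis transcripts differ when PHD2 is labelled as deleted. In edgeR's quasi-likelihood test with Benjamini-Hochberg adjustment, 0 of the 9 genes passed an adjusted p of 0.05, against 0.0437% of 13734 genes tested. At an unadjusted p under 0.05 the count was also 0 of 9, against 3.49% of genes tested, and DESeq2 called 0 of 9 (0.168% of genes). Log2 estimates ran from 0.06 (Alas2) to 0.26 (Ppox), with a median of 0.15 against 0.02 over all genes tested. All 9 estimates lay above 0, as did 57.8% of all genes, and each 95% interval included 0. Each library was left out in turn, and the fit without P2KO library 6 is given here after seeing the values. That library was the lowest of P2KO for each gene but Alas1, so leaving it out raises those estimates. Without it the median was 0.28. An unadjusted p under 0.05 was reached by 6 of the 9 (Alad, Uros, Urod, Cpox, Ppox and Slc25a38), against 12.2% of genes tested. These genes varied together and are not 6 separate results. Their smallest p was 0.0099 for Ppox (log2 0.40), and 0 of 9 passed the adjusted threshold (0.0431% of genes) in that edgeR fit.

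In the comparison of P2H2KO with P2H2WT, which asks the same with HIF2α also labelled as deleted, edgeR again called 0 of the 9, against 0.0744% of 13435 genes tested. An unadjusted p under 0.05 was reached by 0 of 9, against 2.63% of genes, and DESeq2 called 0 of 9 (0.313% of genes). Log2 estimates ran from -0.20 (Alas2) to 0.08 (Alas1), with a median of -0.11 against 0.00 over all genes. Below 0 lay 8 of the 9, as did 49.5% of all genes. Library 15, the lowest of P2H2KO for each gene but Alas1, was likewise picked from these values. Without it the median was 0.02, and 6 of 9 estimates lay above 0. In that fit edgeR called 0 of 9 (0.0589% of genes), and 0 of 9 had an unadjusted p under 0.05 (2.56% of genes).

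The difference between the genotype effects was tested itself, since the signs of 8 genes were opposite in the lines. By edgeR 0 of the 9 passed, as did 0% of 14080 genes, and at an unadjusted p under 0.05 the count was 0 of 9 against 1.51% of genes. DESeq2 called 0 of 9 and 0% of all. Estimates ran from -0.03 (Alas1) to 0.32 (Uros) on the log2 scale, and each had an adjusted p of 0.999. The interval for Alas2 was -0.37 to 0.87, which includes differences of either sign.

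The wild-type groups of the lines were compared to show how far the lines differ, which share neither libraries nor a table. Again 0 of the 9 were called by edgeR, against 1.22% of 13593 genes, and 0 of 9 had an unadjusted p under 0.05, against 11.4% of genes. DESeq2 called 0 of 9 (3.08% of genes). Alas2 differed by -0.25 (SE 0.15) and Ppox by 0.11 (SE 0.14) in P2WT relative to P2H2WT, and 8 of 9 estimates lay below 0, as did 53.4% of all genes.

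**Figure D2:**
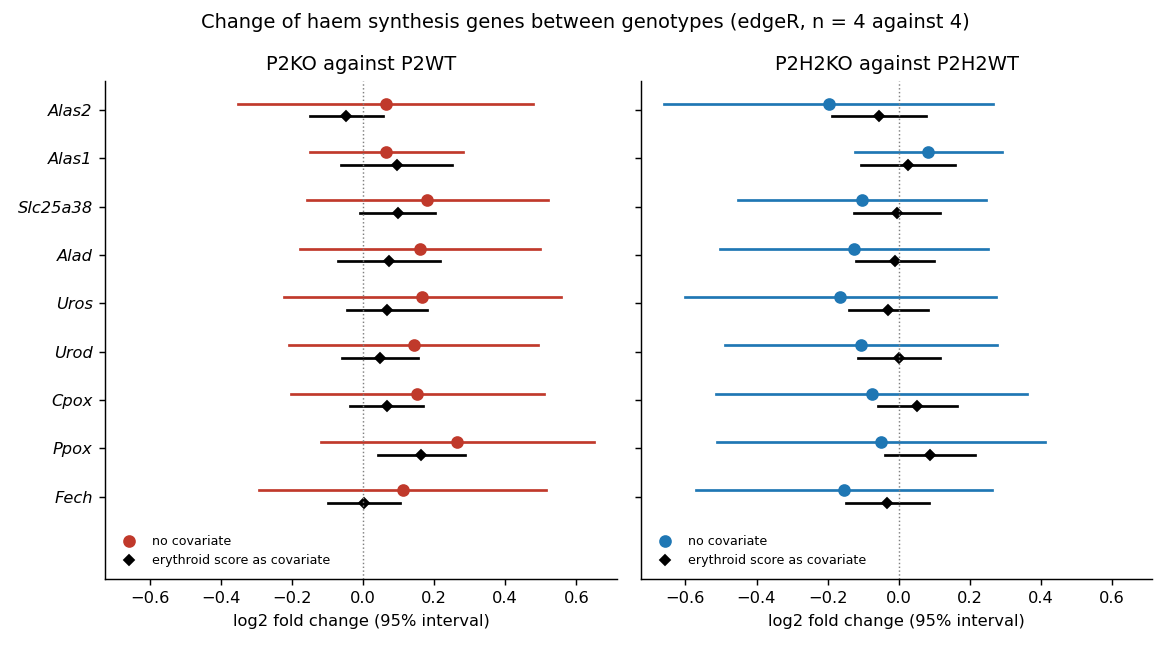
Log2 fold change of each gene between genotypes in the PHD2 line (left) and in the PHD2 and HIF2 line (right), with 95% intervals from edgeR, 4 libraries against 4. Circles are the fits without a covariate and diamonds the fits with the erythroid score; the intervals are wide without the score and narrow with it, and among the diamonds the interval of Ppox in the PHD2 line excludes 0.

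The spread that widened these intervals was shared by 8 of the 9 genes. Across 16 libraries, after the mean of each group was taken off, Pearson's r of log2 CPM among Alas2, Slc25a38, Alad, Uros, Urod, Cpox, Ppox and Fech ran from 0.92 to 0.989. Alas1 went the other way, with r from -0.811 (Alad) to -0.74 (Slc25a38). Over 12081 genes, 49.8% had an r below 0 with Alas2 and 5.52% an r over 0.9. An r below 0 is thus not particular to Alas1. These are descriptions over libraries that share depth and composition among genes. P2H2KO 15 was among the 3 lowest libraries for 8 of the genes, P2KO 6 for 7 and P2WT 7 for 6. In a bulk library, fewer cells of a type and less RNA per cell cannot be told apart.

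Erythroid markers moved with these 8 genes. The erythroid score, the mean log2 CPM of the 14 markers (none of them among the 9 genes), was 9.43 in P2H2KO 15 and 9.62 in P2KO 6, and lay between 9.84 and 10.45 in the other libraries. Over the 8 libraries of the PHD2 line Alas2 followed the score with r = 0.989 and Spearman's rho = 1.0, with adjusted exact permutation p of 0.000149 and 0.000298. In the other line Alas2 gave r = 0.986 and rho = 0.952 (adjusted exact permutation p of 0.000255 and 0.00171). The slope was 0.97 and 0.98 log2 units per unit of the score, and r was 0.97 and 0.981 without the 2 libraries farthest from the median score. These p-values were adjusted over 18 relations, 9 genes in each of 2 lines, and are two-sided. The share of all genes with such an r with the score was not computed. With group means removed, the score had r = 0.992 with Alas2 over 16 libraries. An r over 0.9 with Alas2 was found for 5.52% of 12081 genes, so a close relation to the score is not particular to the genes described here. Alas2 is made in erythroid cells, and its relation to erythroid markers was likely before the test.

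Fech had the closest relation (r = 0.995 in the PHD2 line and 0.992 in the other). The 6 genes Slc25a38, Alad, Uros, Urod, Cpox and Ppox had r from 0.939 (Alad, PHD2 line) to 0.991 (Alad and Cpox, other line), with adjusted exact permutation p of at most 0.00121. Their slopes ran from 0.71 (Slc25a38) to 0.99 (Ppox). For Alad in the PHD2 line rho was 0.786 (adjusted exact permutation p = 0.0296), and r was 0.843 without the 2 farthest libraries. Alas1 fell as the score rose in the line labelled as lacking PHD2 and HIF2α (r = -0.873, rho = -0.952, adjusted exact permutation p of 0.00106 and 0.00171, r = -0.854 without 2 libraries). In the PHD2 line its relation did not pass (r = -0.635, rho = -0.667, adjusted exact permutation p of 0.091 and 0.0831), and r was -0.17 without P2KO 6 and P2WT 7. The difference between the lines in this relation was not tested. Titles end in m for 5 libraries of each line and in f for 3, too few to repeat the relation within a line and suffix. The f libraries were P2KO 9, P2WT 7 and 10, P2H2KO 15 and 17, and P2H2WT 16. The suffix was thus not balanced between genotypes, with more m libraries in P2KO than in P2WT but fewer in P2H2KO than in P2H2WT. Its part in the genotype differences was not tested beyond the fits with the suffix as covariate. The score went with this suffix in 2 groups: in P2WT it was 9.93 and 9.84 in the f libraries and 10.1 and 10.37 in the m libraries, and in P2H2KO 9.43 and 9.89 against 10.45 and 10.19. With both lines together and the mean of each line taken off, a setting chosen after seeing the data, r between the score and Alas2 was 0.981 over the 10 m libraries and 0.988 over the 6 f libraries. The other 7 genes that rose with the score had r from 0.944 (Ppox) to 0.99 (Uros) in the m libraries and from 0.949 (Ppox) to 0.999 (Urod) in the f libraries. Alas1 had r of -0.724 and -0.73.

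**Figure D3:**
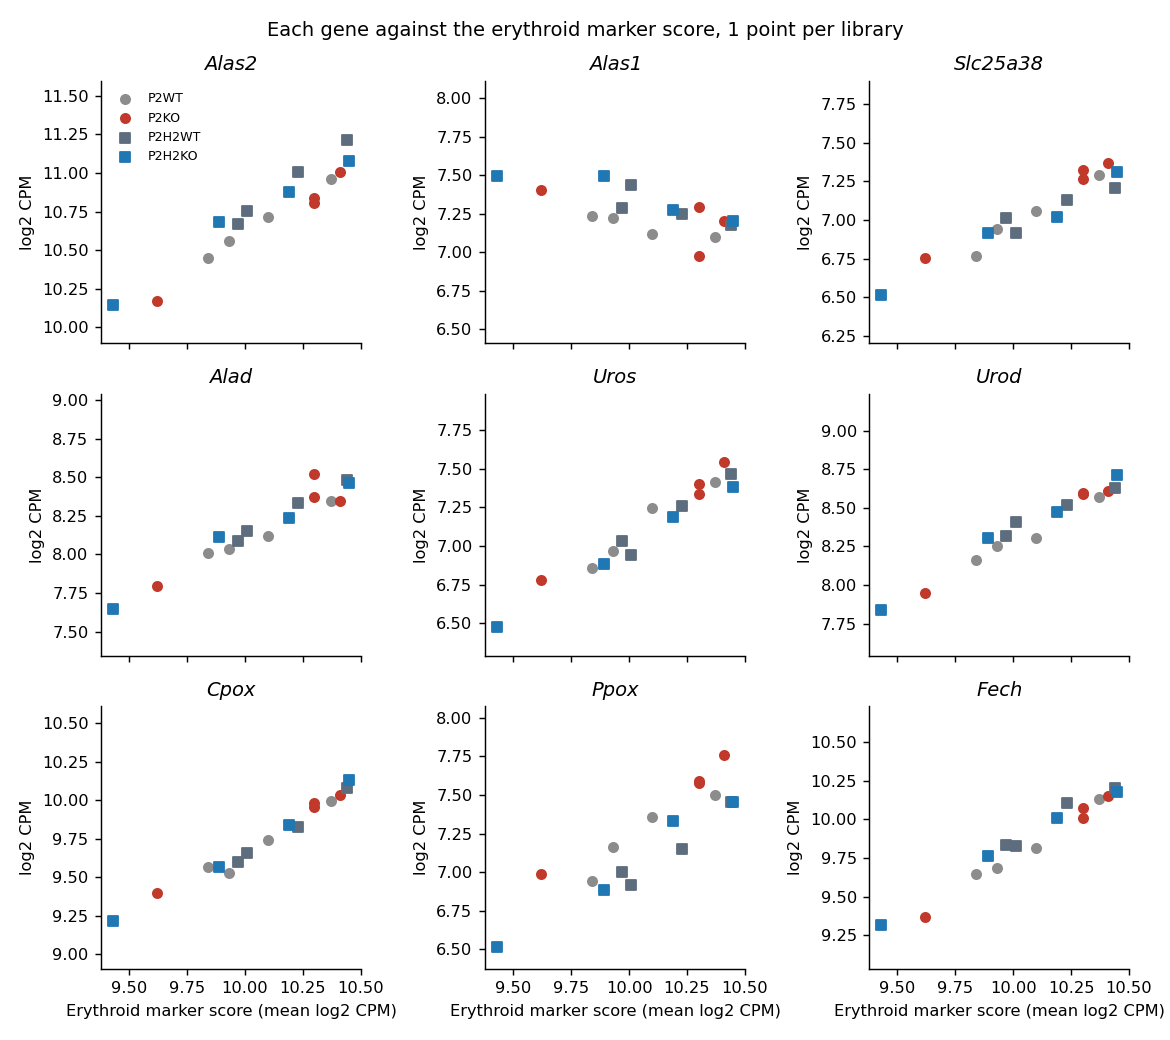
Log2 CPM of each gene against the erythroid marker score (mean log2 CPM of 14 markers), 1 point per library, with the same span of log2 CPM in each panel. The 8 genes other than Alas1 rise with the score from P2H2KO 15 (9.43) and P2KO 6 (9.62) upward, and Alas1 slopes down.

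With the erythroid score as a covariate the standard errors of the PHD2 line fell from between 0.0958 and 0.184 to between 0.0446 and 0.0692. Alas2 was then -0.05 (95% interval -0.15 to 0.06) in P2KO and -0.06 (-0.19 to 0.08) in P2H2KO, each against its wild type. The difference between these effects was -0.00 (-0.14 to 0.13). Fech was 0.00 (-0.10 to 0.10) in P2KO and -0.03 (-0.15 to 0.09) in P2H2KO. By edgeR with this covariate 0 of 9 genes passed the adjusted threshold in P2KO (0.0728% of genes tested) and 0 of 9 in P2H2KO (0.134%), 0 of 9 for the difference (0%) and 0 of 9 between wild types (3.21%).

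Ppox had the smallest p of the 9 in P2KO in that fit, at 0.16 (95% interval 0.04 to 0.29, unadjusted p = 0.0141, adjusted p = 0.92 by edgeR), the 1 gene of the 9 at an unadjusted p under 0.05, against 4.96% of genes tested. In P2H2KO Ppox was 0.09 (-0.04 to 0.21), where 0 of 9 genes had an unadjusted p under 0.05, against 4.56% of genes. For the difference between the effects it was 0.07 (-0.09 to 0.22), and 0 of 9 genes had such a p, against 1.88% of genes. Between wild types 3 of 9 genes did, against 21.4% of genes: Ppox at 0.21 (adjusted p = 0.0697), Alas1 at -0.16 (adjusted p = 0.134) and Alas2 at -0.14 (adjusted p = 0.141), all by edgeR. Ppox counts per 100 Alas2 counts ran from 10.4 to 11.1 in P2KO and from 8.79 to 9.79 in P2WT, without overlap. They ran from 7.24 to 8.57 in P2H2KO and from 6.86 to 7.86 in P2H2WT, with overlap. This ratio was looked at after the values had been seen and has no test.

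Alas2 was also set directly against the summed counts of the 14 erythroid markers. It made up 4.49, 4.56, 4.6 and 4.43 counts per 100 marker counts in P2KO 1, 5, 6 and 9, and 4.57, 4.59, 4.48 and 4.52 in P2WT 3, 4, 7 and 10. In P2H2KO 11, 12, 15 and 17 the values were 4.58, 4.68, 4.52 and 4.51, and in P2H2WT 13, 14, 16 and 18 they were 4.70, 4.73, 4.38 and 4.55. All 16 libraries thus lay between 4.38 and 4.73, although Alas2 itself ranged from 1130 to 2380 CPM. The groups differed by -0.0063 on the log2 scale in the PHD2 line (exact two-sided permutation p = 0.686) and by -0.0051 in the other (exact p = 0.829). Both were 0.829 after adjustment over the 2 tests, where 4 against 4 libraries cannot give less than 0.0286.

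**Figure D4:**
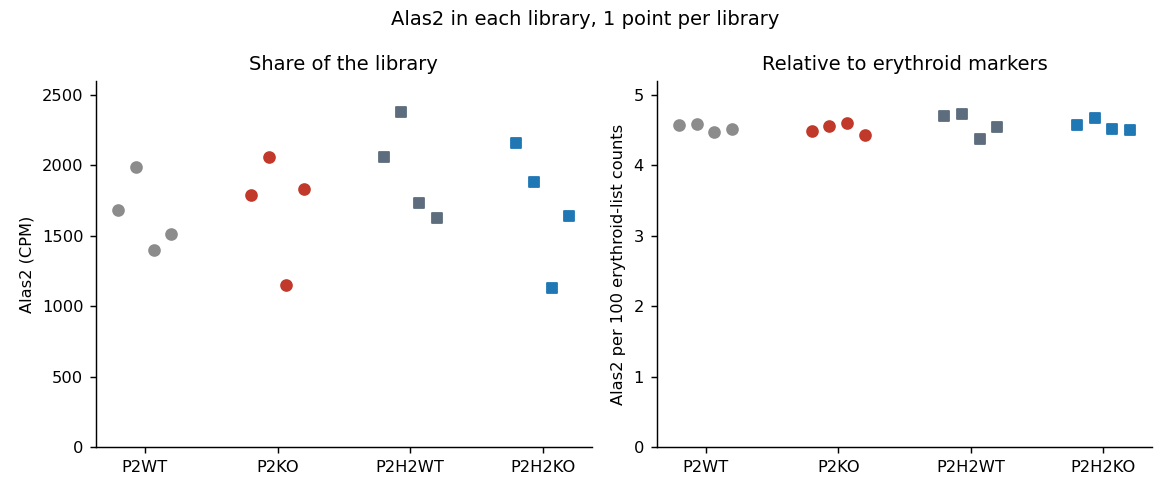
Alas2 in each library as CPM (left) and as counts per 100 counts of 14 erythroid markers (right), both axes starting at 0 and 1 point per library. CPM spans 1130 to 2380, and the ratio 4.38 to 4.73.

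Relative to Alas2 the other genes differed in how far their ratios ranged. Fech made up between 49.7 and 59.0 counts per 100 Alas2 counts in the 16 libraries, Cpox between 44.0 and 58.6 and Urod between 16.6 and 21.6. The highest library held 1.19 times the lowest for Fech, 1.33 times for Cpox and 1.3 times for Urod. The range was 15 to 20.1 for Alad, 7.08 to 9.58 for Uros and 6.23 to 9.38 for Slc25a38. Ppox ranged further, from 6.86 to 11.1 (1.62 times), and Alas1 the furthest, from 6.07 to 16 (2.64 times). Counts per 100 Alas2 counts are not corrected for length and compare libraries, not genes.

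Other scores also moved with these genes after group means were taken off, over 16 libraries. The cell cycle score (6 genes, among them Mki67 and Rrm2) had r = 0.933 with Alas2 and -0.863 with Alas1. The mature neutrophil score had r = -0.643 with Alas2 and 0.686 with Alas1, and the late granule score (Ltf, Ngp and Camp among its 6 genes) had -0.677 and 0.686. The early granule score, which holds Mpo and Elane, had -0.05 with Alas2 and 0.452 with Alas1. Lists for other cell types lay between: 0.609 for B cells, 0.574 for T and NK cells, 0.129 for megakaryocytes, -0.096 for eosinophils and -0.426 for monocytes and macrophages with Alas2. The part of any of these in the values of the 9 genes was not tested beyond the erythroid covariate.

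Genes most like each of the 9 were ranked by the same within-group r, among 11307 genes with a mean of at least 1 CPM. Predicted genes, antigen receptor segments and the 9 genes themselves were left out. Among the genes closest to Alas2 were Isg20 (0.994) and March2 (0.993). Fech was closest to Eif2ak1 (0.994), the haem-regulated kinase that slows translation when haem is short, Glrx5 (0.993), which serves iron-sulphur cluster assembly, and Tfdp2 (0.992). Cpox was closest to Nipa1 (0.994), Car2 (0.991) and Hemgn (0.99), and Urod to Rhd (0.994), Ptdss2 (0.994) and Blvrb (0.994). Among the genes closest to Slc25a38 were Fam210b (0.99) and Isg20 (0.986). Rhd encodes a red cell surface protein, and Car2 and Hemgn are known from erythroid cells.

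Uros and Ppox shared Ppp1r15a (0.996 and 0.99), the phosphatase subunit that reverses the stress-induced block of translation, and Dhrs11 (0.989 and 0.987). St3gal6 (0.99) completed the list of Uros and Samd11 (0.988) that of Ppox. Alad was closest to Rrm2 (0.992), Slc16a1 (0.99) and Cdc6 (0.99), and Rrm2 and Cdc6 act in DNA replication. Alas1 had another set of neighbours: Atp6v0b (0.963), a subunit of the vacuolar proton pump, Uba1 (0.963), the enzyme that activates ubiquitin, and Ppp4c (0.962), a phosphatase.

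The genes around haem synthesis were taken from 5 lists of 38 genes, of which 37 passed the filter and Flvcr2 did not (at most 0.269 CPM). In each of the 4 comparisons edgeR called 0 of 37 at adjusted p under 0.05. At an unadjusted p under 0.05 there were 0 in P2KO, 1 in P2H2KO, 0 for the difference between the effects and 3 between the wild types, beside the shares of all genes given above. The median log2 estimate of the 37 was 0.04 in P2KO, against 0.02 over all genes tested. There 26 were higher and 11 lower, and 57.8% of all genes were higher. In P2H2KO the median was -0.08, against 0.00 over all genes tested. There 8 were higher and 29 lower, and 49.5% of all genes were lower. Many of the 37 varied together across libraries, as given below, so these counts are not of separate results.

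Ranked by edgeR's p, the first 3 in P2KO were Zfpm1 (log2 difference 0.19, SE 0.152), the partner of GATA1, Hmox1 (-0.15, SE 0.122), which opens the haem ring, and Slc25a37 (0.22, SE 0.192), the mitochondrial iron importer mitoferrin. In P2H2KO they were Blvra (-0.18, SE 0.0644), which reduces biliverdin, Hmox1 (-0.47, SE 0.223) and Iscu (-0.11, SE 0.0588), the scaffold of iron-sulphur clusters. All 6 values had an adjusted p of 1 in edgeR, and Blvra in P2H2KO was the 1 gene with an unadjusted p under 0.05. For the difference between the effects they were Mpo (-0.39, SE 0.273), Blvra (0.15, SE 0.109) and Slc48a1 (0.19, SE 0.144), each with an adjusted p of 0.999 in edgeR. Between the wild types they were Slc48a1 (-0.21, SE 0.0726), a haem transporter of endosomes, Nfe2 (-0.18, SE 0.0721) and Epx (-0.29, SE 0.12), with adjusted p of 0.288, 0.389 and 0.393 in edgeR.

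After group means were taken off, these genes differed in how they ran with Alas2 across libraries. Of the 37, 20 had a within-group r over 0.9 with Alas2, against 5.52% of 12081 genes. Among suppliers of mitochondrial iron and iron-sulphur clusters 6 of 9 did, with Isca1 at 0.987, Glrx5 at 0.986, the transporter Abcb10 at 0.981 and Slc25a37 at 0.962. Slc25a28, the mitoferrin of non-erythroid cells, was at -0.79. Of the regulators of erythroid transcription 4 of 5 passed 0.9 (Gata1 0.974, Klf1 0.968, Tal1 0.966 and Zfpm1 0.908), and Nfe2, also known from megakaryocytes, was at -0.022.

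Among porphyrin transporters and regulators of the enzymes 5 of 10 passed, among them Fam210b (0.975), Hebp1 (0.968) and Tmem14c (0.964), which acts in porphyrin transport, whereas Ireb2, an iron-regulatory protein, was at -0.602. Of the genes for haem breakdown, export and sensing 4 of 9 passed, led by Eif2ak1 (0.991) and Blvrb (0.977). In the same list the haem-binding repressor Bach1 (-0.916), the exporter Flvcr1 (-0.9) and Hmox2 (-0.89) ran against Alas2 and with Alas1 (0.82, 0.814 and 0.842). Of the haem proteins of granulocytes, catalase (Cat) was at 0.963 with Alas2, Mpo at 0.02, Epx, the eosinophil peroxidase, at 0.163, and Cybb, the haem-bearing subunit of the NADPH oxidase, at -0.869. Mpo and Cybb were abundant, at means of 1830 and 1970 CPM.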

How the data were processed

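The authors deposited raw counts per Ensembl gene, 1 table for each of 2 lines with 8 libraries each, per the file headers. HTSeq and the mm10 build are named per the submitters' processing notes; versions, the aligner and the strand setting are not given in the sources used here. GENCODE M21 symbols matched 49326 of 49585 identifiers.

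In edgeR 4.0.16 (R 4.3.3), filterByExpr removed low genes, TMM scaled the libraries, and the robust quasi-likelihood F test was two-sided, with Benjamini-Hochberg adjustment across the genes kept. Each line was fitted on its own 8 libraries, and the difference of effects on all 16. CPM came from the fit of 16, with a prior count of 2 for log2 CPM. Exact permutation tests and correlations used scipy 1.17.1 and numpy 2.4.6. The ratio of Alas2 to markers had a pseudocount of 1. Promoter windows came from RefSeq (GRCm38.p6); Fech is not matched there.

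All 9 genes are named, as are the 3 pathway genes of smallest p in each comparison and the 3 genes most like each of the 9, of which 2 are not reported here. The genes and lists were chosen with earlier results of these data known. Alternatives were RLE or upper-quartile scaling, omitting the filter, a minimum of 10 counts throughout, DESeq2 1.42.0, the title suffix or the erythroid score as covariate, a fit of all 16 libraries, a pseudocount of 5, other denominators and leaving out each library. On simulated counts for the PHD2 line (13734 genes), 24% of 50 genes were called at a log2 change of 0.5 and 60% at 1. For the PHD2 and HIF2 line (13435 genes), these were 22% and 74%. The changed genes were picked at random and each gene was simulated independently. The rates are thus not those of the 9 genes, most of which varied together.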

Additional observations from a re-analysis of the deposited data

Results flagged for a closer look

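In P2KO library 6 stood apart from the other 3 for 2 genes. Urod was at 247 CPM there, with the nearest library at 386 and the highest at 390 CPM, so 0.973 of the range of the group lay in the gap (the 95% critical value for 4 libraries is 0.829). Cpox was at 675 CPM, with the nearest at 995 and the highest at 1050 CPM, a gap of 0.865 of the range. The erythroid score of this library was 9.62, also the lowest of its group. Among the 36 combinations of a gene and a group examined, chance gives such a gap in about 1 of 20.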

How the results depend on the processing

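The number of genes called was 0 of 9 in each comparison under all 30 other settings and in all 40 fits without 1 library. Of 270 log2 estimates under other settings 257 kept their direction, and of 360 without 1 library 341 did. With the erythroid score the direction turned for Alas2 in P2KO (-0.047), for Urod (0.001), Cpox (0.052) and Ppox (0.087) in P2H2KO, for the difference in Alas1 (0.056) and Alas2 (-0.002), and for Uros (0.055), Slc25a38 (0.02) and Cpox (0.009) between wild types. With the title suffix it turned for Ppox in P2H2KO (0.042), the difference in Alas1 (0.019), and Uros (0.033) and Slc25a38 (0.01) between wild types. Against haemoglobin counts alone, the log2 ratio of Alas2 differed between genotypes by 0.0263 in the PHD2 line and by 0.0142 in the other. Against the list without haemoglobins the genotype difference was -0.0828 (exact permutation p = 0.0857) and -0.0549 (exact permutation p = 0.314). The cause of these turns was not tested.

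Leaving out 1 library at a time, Alas2 in P2KO ran from -0.036 to 0.213. In P2H2KO Alad ran from -0.251 to 0.011, Urod from -0.245 to 0.035, Cpox from -0.241 to 0.062, Ppox from -0.195 to 0.103 and Slc25a38 from -0.241 to 0.024. The difference for Alas1 ran from -0.093 to 0.045. Between wild types Uros ran from -0.16 to 0.052, Cpox from -0.194 to 0.015 and Slc25a38 from -0.153 to 0.025. The genotype difference in the log2 Alas2 ratio ran from -0.015 to 0.0034 in the PHD2 line and from -0.0274 to 0.0091 in the other. No paired analysis was possible because no replicate number is shared between groups.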
